A study of Mus musculus and synthetic construct with 21 samples.

Results

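Sites with near-consensus DR1 motifs are the elements of pools 1 and 3 whose native 16 bases lie within 2 mismatches of the 13-base DR1 consensus, counted over every offset and both strands. By this rule 440 of the 4500 sites of the 2 pools were members. Pool 1 held 90 of class w and 90 of class c, each with 2 sites at 0 mismatches, 14 at 1 and 74 at 2. Pool 3 held 163 of class w (6, 34 and 123 sites at 0, 1 and 2 mismatches) and 97 of class c (0, 14 and 83). In all 440 members the best window started at base 4 of the 16 bases on the strand given in the name. The members held 320 distinct 16-mers, and 6 of these were in both pools. In pool 1 the w site and the c site of a number carry the same 16 bases at different genome positions, so the 2 classes differ there in what surrounds the motif. In pool 3 a shared number does not mean a shared motif. The letters w and c, and the letters that mark the native and the altered form of each element, are not spelled out in the names, and the names do not give the altered bases.

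DR1 is a direct repeat of the half-site AGGTCA with a spacer of 1 base. It is bound by PPARγ, the nuclear receptor that drives fat cell differentiation, as a dimer with RXR: PPARγ sits on the 5′ half-site and reads a short extension upstream of it, and RXR sits on the 3′ half-site. Other nuclear receptors also bind DR1 elements. A massively parallel reporter assay places each element next to a reporter gene with a barcode, so that RNA barcodes divided by plasmid barcodes report how strongly the element drives transcription.

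The RNA, ChIP and input libraries came from 3T3-L1 cells, a mouse line of fat cell precursors. These cells were induced to differentiate with dexamethasone at 1 µM, insulin at 1.7 µM and the phosphodiesterase inhibitor IBMX at 0.5 mM. No treatment or time is given for the plasmid libraries. Cells were collected for RNA or chromatin 16 h after a pool was transfected. Each pool had 1 RNA and 1 plasmid library, and pool 1 also had 1 ChIP library made with a PPARG antibody and 1 input library. No library had a replicate. Activity is log2 of RNA over plasmid counts after scaling to library totals, given as the median over an element's barcodes, and differences are on this log2 scale. Binding is log2 of ChIP over input counts, scaled in the same way, so a value of 0 means equal shares of both libraries. No transcript data of the cells were used here, so the cell type was not checked against marker genes.

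The sequences that carry the results are printed 5′ to 3′ on the strand of the motif, with capitals for the bases of the 13-base window that match AGGTCAAAGGTCA. Positions are of mm9, counted from 1. The first set holds 3 sites with an exact match, which show the extremes of similarity. The second holds sites whose activity depended on the motif or went the other way. The third holds sites with the highest or lowest PPARG binding.
pool 1 w 158 (chr12:75006184-75006199, plus strand): attAGGTCAAAGGTCA
pool 1 w 450 (chr5:112670341-112670356, minus strand): tggAGGTCAAAGGTCA
pool 3 w 1428 (chr3:65319976-65319991, minus strand): agtAGGTCAAAGGTCA
pool 1 w 519 (chr14:65999480-65999495, minus strand): tccAGGaCAcAGGTCA
pool 1 w 4 (chr3:96359334-96359349, plus strand): accAGGTgAAAGGTtA
pool 1 w 432 (chr1:193244370-193244385, minus strand): aatAGGgCcAAGGTCA
pool 1 w 540 (chr4:82156918-82156933, minus strand): atgtGGTCAAAGGTCA
pool 1 w 486 (chr1:39882929-39882944, plus strand): agaAGGTgAAAGGTgA
pool 1 w 236 (chr9:61137747-61137762, minus strand): ttgAGGTtAAAGGgCA
pool 1 w 292 (chr16:24874566-24874581, plus strand): tgtAGGTgAAAGGaCA
pool 1 c 609 (chrX:24222639-24222654, plus strand): tgtAGGTaAAgGGTCA
pool 3 w 691 (chr8:28256996-28257011, plus strand): tgcAGGTCAgAGGaCA
pool 3 w 1336 (chr14:35303257-35303272, plus strand): agtAGGcCAAAGaTCA
pool 3 w 1155 (chr12:73820876-73820891, minus strand): ggtAGGTtAAAGGgCA
pool 3 c 252 (chr11:44959373-44959388, minus strand): aatgGGTCAAAaGTCA
pool 1 w 641 (chr4:138527491-138527506, minus strand): agtAaGgCAAAGGTCA
pool 1 w 20 (chr4:86336173-86336188, plus strand): actAGGgCAAAGtTCA
pool 1 w 136 (chr3:121517399-121517414, minus strand): tatAGGTgAAAGGTgA
pool 1 c 401 (chr16:88710669-88710684, minus strand): agtAGGTCAAAGGgCA
pool 1 w 182 (chr5:149764926-149764941, plus strand): aagAGGgaAAAGGTCA

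The 3 lower-case bases at the start of each line flank the 13-base window on its 5′ side, and they were not used to choose the members. Of these sites, w 136 and w 486 share all 13 bases of the window (C5G and C12G against the consensus, with positions counted from 1 at the 5′ end of the window) and differ in the flanking bases. The window of w 236 is the same as that of pool 3 w 1155 (C5T and T11G). No gene annotation of this build was used, so the sites are not assigned to genes, exons or introns.

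The first question was whether the motif contributes to activity when it is close to the consensus. In pool 1 class w, the native form was more active than the altered form by 0.67 ± 0.75 on average (SD over 90 sites), and 74 of the 90 sites were above 0. The mean over all 749 w sites with a value was 0.66 ± 0.79. The permutation test over barcodes, adjusted over all sites of the pool, called the native form higher at 23 of 89 tested members (25.8%), against 26.2% of all tested w sites. It called the native form lower at 1 member, against 0.404% of all. The share of near-consensus sites called was close to that of all sites.

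In pool 1 class c the same 16-mers gave a mean difference of 0.16 ± 0.48 (SD over 90 sites), against 0.09 over all c sites. The native form was higher at 6 of 90 members (6.67%), against 3.07% of all tested c sites, and lower at 2, against 0.801%. Pairs of c numbers at 1 genome position (252 with 500, and 130 with 152) are the same site measured again, so the 90 sites are 88 positions. Their native activities differed by 0.17 and 0.06, and the median difference over the 16 such pairs of pool 1 elements was 0.16.

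Pool 3 gave a wider spread. Native minus altered activity was 0.66 ± 1.44 (SD over 163 sites) in class w and 0.33 ± 1.40 (SD over 97 sites) in class c. The native form was higher at 29 of 158 tested w members (18.4%), against 15.9% of all, and at 3 of 91 tested c members (3.30%), against 1.95%. It was lower at 0 w members, against 0.9% of all, and at 0 c members, against 0.279%. At an unadjusted permutation p under 0.05, no member of either class was lower. Over all tested sites, 30 of 1445 w and 32 of 1433 c sites were lower at that limit. With counts summed over barcodes in place of the median, the pool 3 c mean was 0.016 ± 0.14 (SE), so its size rests on how barcodes were combined. The median SD between barcodes of a member was 1.53 in pool 3 and 0.65 in pool 1.

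**Figure D1:**
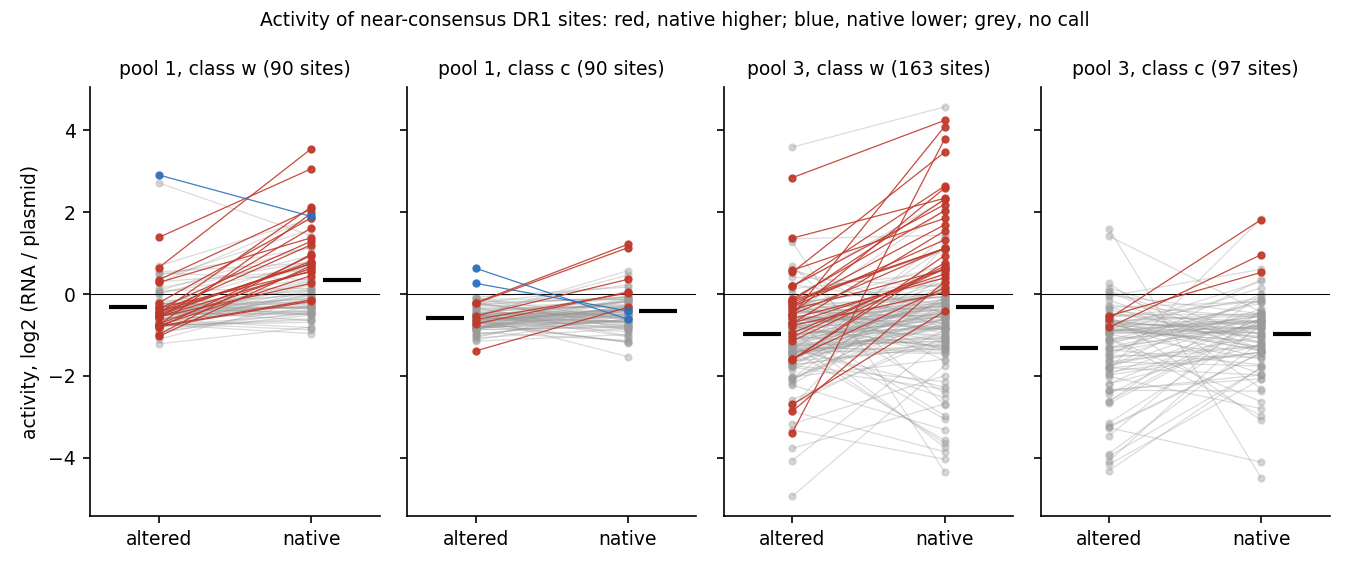
Activity (log2 RNA over plasmid) of the altered and the native form of each member, joined by a line, in the 4 sets of sites; black dashes are means over sites. Red lines are members called higher in the native form (23, 6, 29 and 3 sites from left to right), blue lines members called lower (1 and 2 in pool 1), and the grey lines of pool 3 spread more widely than those of pool 1.

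None of the 10 sites with 0 mismatches passed the test in either direction. Over all tested sites, the native form was called higher at 26.2% in pool 1 w, 3.07% in pool 1 c and 15.9% in pool 3 w. The 10 sites are too few to be told apart from these shares. In pool 1, native w 158 had a median activity of -0.15 over 9 barcodes, from -1.63 to 0.03, and its altered form had -0.71, from -2.14 to 0.17. Native w 450 had -0.87, from -1.60 to 0.35, and its altered form -0.71, from -1.05 to 0.38. The barcodes of both forms overlapped at both sites. The c sites of these numbers, at -0.38 and -0.56 in the native form, overlapped with their altered forms too.

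The 6 exact matches of pool 3, w 410, 669, 837, 952, 1235 and 1428, had native activities between -2.42 and -0.20. Their mean native minus altered difference was 0.19 ± 1.24 (SD over 6 sites). Site 1428 had the largest difference, 1.06, with an adjusted permutation p of 0.107. Site 669, which carries the same 16 bases as pool 1 number 450, had the lowest, -2.25. Without 669, left out after seeing the data, the mean of the other 5 was 0.68 ± 0.17 (SE). Only 3 barcodes of each form of 669 could be used, too few to reach the threshold: 3 against 3 cannot give an exact permutation p below 0.1.

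By number of mismatches, native minus altered activity of pool 1 w sites was 0.19 ± 0.51 at 0 (SD over 2 sites), 0.43 ± 0.77 at 1 (14 sites) and 0.73 ± 0.75 at 2 (74 sites). Just outside the rule, w sites with 3 mismatches had 0.75 ± 0.88 (219 sites) and those with 4 or more 0.61 ± 0.74 (440 sites). In pool 3 class w the means were 0.19 (0.68 without 669), 0.67 and 0.68 at 0, 1 and 2 mismatches, 0.70 at 3 and 0.56 at 4 or more, and the medians were 0.67, 0.83, 0.56, 0.63 and 0.40. The order of the mismatch numbers thus differed between the pools and between mean and median, and the SDs within each number of mismatches were wider than the steps between them.

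The active members were single sites with 1 or 2 mismatches. Site w 519 (T4A, A7C) had the largest difference in pool 1. Its native form had a median activity of 3.55 over 9 barcodes, from 2.04 to 4.26, and its altered form 0.65, from 0.31 to 1.55. The native barcodes were all above the altered ones, and the difference was 2.90 (adjusted p = 0.00146, exact permutation test).

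Site w 4 (C5G, C12T) rose from -0.76 in the altered form to 1.97 in the native form. Its native barcodes, from 0.35 to 2.50, lay above all altered barcodes, from -1.25 to -0.39 (adjusted p = 0.00198, exact permutation test). Site w 486 rose from -0.21 to 1.86 and w 540, with the single mismatch A1T, from -0.57 to 1.61. Both showed no overlap between barcodes of the forms (adjusted p = 0.00146 and 0.00309, exact permutation tests). Site w 432 rose from -0.47 to 2.12, with native barcodes from 0.28 to 2.96 and altered ones from -1.84 to 1.39 that overlapped in part (adjusted p = 0.00409, exact permutation test). Of the 23 members called higher in pool 1 class w, 6 had no overlap between their native and altered barcodes. The matching share over all called w sites is not given here, so this count is not read as particular to members.

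Site w 292 (C5G, T11A) was the one w member called lower. Its altered form had a median of 2.91, from 2.19 to 3.47, and its native form 1.90, from 0.96 to 2.32, a difference of -1.01 (adjusted p = 0.00198, exact permutation test). This site was active with the altered motif, at the highest altered activity of the w members.

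In class c the native form was higher at 609, 350, 4, 20, 494 and 402. Site c 609 (C5A, A8G) had a native median of 1.22 over 9 barcodes, from 0.61 to 2.06, and an altered median of -0.21, from -1.06 to 0.48, with no overlap (adjusted p = 0.00146, exact permutation test). Site c 350 (T11C, C12A) had 1.13 against -0.23, and c 4 had -0.32 against -1.39 (adjusted p = 0.00198 and 0.00644, exact permutation tests). The call at c 4 was lost when barcodes with any plasmid count were used (adjusted p = 0.265, permutation test). Number 4 was thus called in both classes, and so was 609, where w 609 rose from 0.35 to 2.07 (adjusted p = 0.0326, exact permutation test). Site 402 was named after its values were seen, to complete the 6, at 0.02 against -0.62.

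Lower in the native form were c 401 (T11G) and c 245 (T4C, A7G). Native c 401 had a median of -0.62, from -2.42 to 0.21, against 0.63 in the altered form, from -0.40 to 1.19 (adjusted p = 0.0117, exact permutation test). Native c 245 had -0.41 against 0.26 (adjusted p = 0.0347, exact permutation test). The barcodes of the forms overlapped at both sites. With p adjusted within class c alone, the calls at c 401, 245 and 494 were lost (adjusted permutation p = 0.0539, 0.155 and 0.144), and limma gave an adjusted p of 0.179 at c 245.

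In pool 3 the largest difference was at w 1336 (T4C, G10A), 7.17, but it rests on few barcodes. Its native form had a median of 3.78 over 12 barcodes, from -4.21 to 4.19, and its altered form -3.39 over 6 barcodes, from -4.44 to 1.34, and the summed counts gave 4.25 (adjusted p = 0.0121, exact permutation test). The forms overlapped there, and some barcodes of each lay far from the others.

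Site w 691 (A7G, T11A) was cleaner. Its native form had 4.09 over 15 barcodes, from 3.38 to 4.93, and its altered form -0.51 over 14, from -1.59 to 0.68, a difference of 4.60 (adjusted p = 0.000285, permutation test). Site w 1155 had 3.46, from 2.85 to 4.34, against 0.53, from -1.16 to 2.42 (adjusted p = 0.000285, permutation test). Neither site showed overlap between forms. The highest native activity of the pool 3 members, 4.57 at w 1433, named after its values were seen, came with 3.59 in the altered form and no call (adjusted p = 0.292, permutation test). Sites w 227 and w 142 differed by 3.07 and 3.17 with overlapping barcodes (adjusted p = 0.000285 and 0.00747, permutation tests).

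The 3 c members called in pool 3 were 252 (A1G, G9A), 959 and 1180 (both G3A, T4G). Site c 252 had a native median of 1.82 over 14 barcodes, from 0.83 to 2.59, against -0.60, from -6.89 to 1.31 (adjusted p = 0.000285, permutation test). Sites c 959 and c 1180 differed by 1.78 and 1.06 (adjusted p = 0.000285 and 0.0234, permutation tests). These last 2 sites share the whole 13-base window and differ in their flanking bases, and at 959 the barcodes of the forms did not overlap. Adjusted within class c, 1180 was not called (adjusted p = 0.112, permutation test).

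A single 16-mer, tggAGGTCAgAGGaCA (A7G and T11A), occurred at 9 pool 3 sites, 3 of class w and 6 of class c.
pool 3 w 292 (chr8:117373728-117373743, plus strand): tggAGGTCAgAGGaCA
Its native activity ran from -1.37 at c 93 to -0.07 at w 292. Over all native pool 3 sites the SD was 1.39 in w and 0.95 in c. None of the 9 sites passed the test, against 15.9% of all tested w sites and 1.95% of all tested c sites called higher. The 9 sites are too few to be told apart from these shares. The same 13-base window with the flank tgc in place of tgg lies at w 691. That site was named for its large difference, and it had the native activity of 4.09 given above. Sites that share their 16 bases still differ in the rest of the element, which the names do not give.

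The second question was whether the same 16 bases act alike at their w and c positions in pool 1. Native activity was higher at the w position by 0.77 ± 1.01 on average (SD over 90 numbers), with 67 of 90 above 0, against 0.87 ± 1.05 over all numbers. The permutation test called w higher at 34 of 89 tested numbers (38.2%), against 40.5% of all tested numbers, and lower at 1, against 1.48%. Near-consensus motifs were called at about the rate of all motifs.

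With the motif altered, w was higher by 0.27 ± 0.75 (SD over 90 numbers). It was called higher at 8 of 90 members (8.89%), against 10.5% of all, and lower at 1, number 401, against 1.34%. Number 401 lay at -0.84 in w and 0.63 in c when altered (adjusted p = 0.00867, exact permutation test).

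Number 519 had the largest native difference. Its w barcodes, from 2.04 to 4.26, all lay above its c barcodes, from -1.73 to 0.24, and the medians differed by 4.22 (adjusted p = 0.000471, exact permutation test). Numbers 236, 486, 432 and 442 followed with 3.62, 3.38, 2.95 and 2.62. The last had overlapping barcodes in w, from -1.73 to 2.68, and in c, from -3.41 to 0.80 (adjusted p = 0.0257, exact permutation test). Number 445 went the other way, at -0.43 in w and 0.07 in c (adjusted p = 0.0387, exact permutation test). Numbers 519 and 442 share the same 13-base window, and both lay above 0 in class w and below 0 in class c. Both were named for their large w minus c differences, which favours this pattern. Of the 90 native members of each class, 48 lay above 0 in w and 10 in c.

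The difference between the classes was also tested on the effect of the motif itself, as the interaction of class and form in a limma fit over all numbers of pool 1. The mean of native minus altered activity in w, minus the same in c, was 0.51 ± 0.91 (SD over 90 numbers). The interaction was positive at 13 of 89 tested members (14.6%), against 15.6% of all tested numbers, and negative at 1, number 292, against 0.404%. The fitted interactions were 2.94 ± 0.40 (SE) for 519, 2.77 ± 0.45 for 486 and 2.60 ± 0.48 for 432, with limma adjusted p-values of 4.5e-07, 1.46e-05 and 9.1e-05. The native c forms of these 3 numbers lay at -0.67, -1.53 and -0.83, all below the mean of native c members, -0.43. Native c activity is subtracted in the interaction, so choosing the largest interactions itself favours low values of it.

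**Figure D2:**
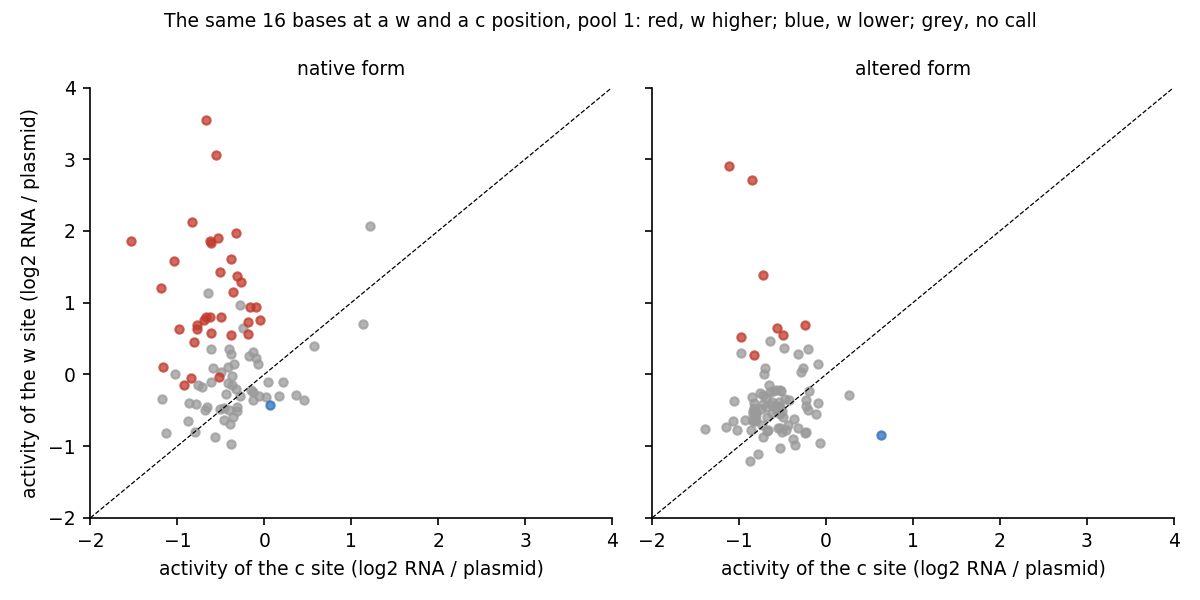
Activity of the w site (vertical) against the c site (horizontal) of the same 16 bases for the 90 member numbers of pool 1, native form on the left and altered form on the right; the dashed line marks equal activity. In the native form 34 numbers in red were higher in w and 1 in blue was lower, and in the altered form 8 were higher and 1 was lower.

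For PPARG binding, the share of members above the 2-fold limit was higher than that of all sites in both classes. In class w, native members had a mean log2 ChIP over input of 0.86 ± 0.91 (SD over 69 sites) and altered ones -0.11 ± 0.63 (69 sites). The mean over all native w sites was 0.37 ± 0.91. The native form was bound more than the altered form by 0.94 ± 1.03 (67 sites with both), against 0.51 over all w sites, and at least 2-fold more at 27 of 67 members (40.3%), against 24% of all w sites.

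In class c, native members had 0.63 ± 0.86 (SD over 54 sites) and altered ones -0.15 ± 0.55 (48 sites), and the mean over all native c sites was 0.07. The native form was at least 2-fold above the altered form at 23 of 46 members (50.0%), against 17.6% of all c sites. It was at least 2-fold below it at 1 w member, against 0.739% of all w sites, and at 1 c member, against 3.47% of all c sites. With 1 ChIP and 1 input library there is no test of binding. Of the members, 21 of 90 w and 36 of 90 c had no native value in the ChIP table and are not analysed here for binding.

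The mean difference in binding was larger with a closer match to the consensus in both classes. In class w it was 1.74 at the 1 site with 0 mismatches, 1.43 ± 0.95 at 1 mismatch (SD over 9 sites) and 0.85 ± 1.03 at 2 (57 sites), then 0.73 ± 0.85 at 3 (147 sites) and 0.33 ± 0.76 at 4 or more (327 sites). In class c the means were 1.58, 1.55 ± 0.81 (6 sites) and 0.63 ± 0.87 (38 sites) at 0, 1 and 2 mismatches, 0.37 at 3 and 0.16 at 4 or more. The order was the same in both classes, though each number of mismatches spans a wide range and the w and c sites share their motifs. In w, native binding alone was 0.91 at 1 mismatch (9 sites) and 0.84 at 2 (59 sites), and altered binding was -0.45 (10 sites) and -0.05 (58 sites). This step in w thus lay more in the altered than in the native forms. In c, native binding was 1.30 (9 sites) and 0.46 (43 sites), and altered binding was -0.14 (6 sites) and -0.15 (40 sites). At least 2-fold more binding of the native form was seen at 7 of the 10 w members with 0 or 1 mismatch and at 6 of the 8 such c members.

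**Figure D3:**
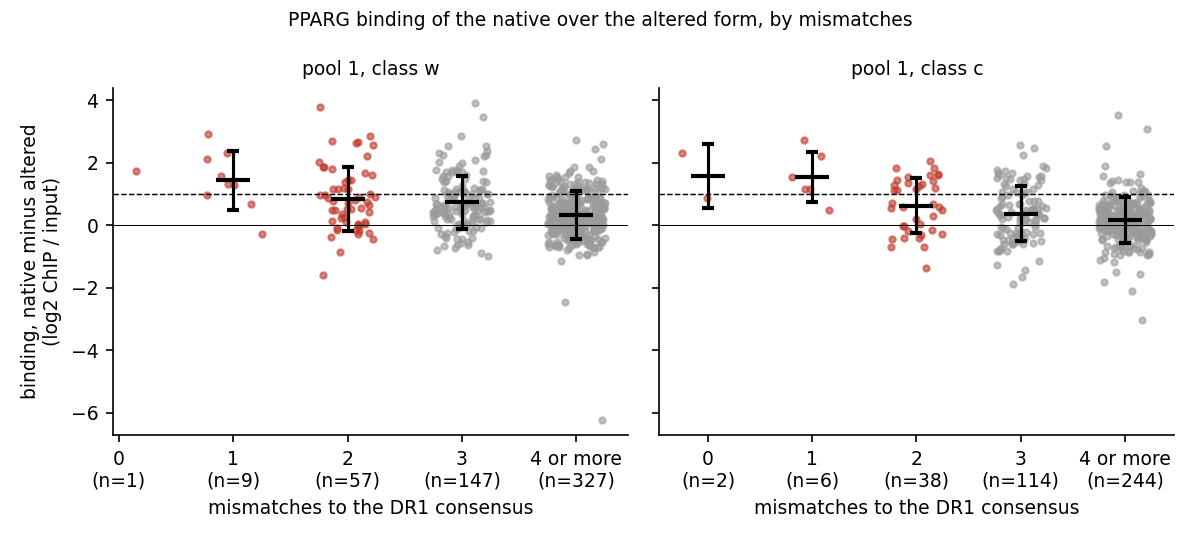
Native minus altered PPARG binding (log2 ChIP over input) of pool 1 sites by their mismatches to the DR1 consensus, class w on the left and class c on the right; red points are members, grey points other sites, and dashes with bars are means and SD over sites. The means fall from 1.43 at 1 mismatch to 0.33 at 4 or more in w, and from 1.55 to 0.16 in c; the dashed line marks a 2-fold difference.

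The exact match of number 158 had 17144 ChIP and 2634 input reads in native class c, a ratio of 2.18 with a 95% Clopper-Pearson interval from 2.12 to 2.24 that covers counting error only. Its altered form had -0.12. Number 450, the other exact match, had 1.95 in native w, from 1.86 to 2.04, and 0.64 in native c, from 0.53 to 0.75. Its altered forms had 0.22 and -0.22. These intervals do not overlap between native and altered forms, while neither number passed the activity test in either class and native activity was below 0 at all 4 sites.

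Among w members with a value for both forms, the highest native binding was at 641 (2.80, interval 2.60 to 3.02), 20 (2.76), 35 (2.55), 136 (2.48) and 500 (2.26). Their altered forms had 0.23, -0.08, 0.33, 0.63 and -1.51. None of these 5 sites passed the activity test, and their native activities lay between -0.64 and 0.39. Of all tested w sites 26.2% were called higher, and 5 sites are too few to be told apart from that share. Site w 360 (C5T, C12A) had native binding of 2.60 and no altered value in the table, and it was called higher in activity, at -0.17 in the native form against -0.80 (adjusted p = 0.0379, exact permutation test).

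The highest in class c with a value for both forms were 401 (2.76, interval 2.57 to 2.96), 158, 360 (2.09), 210 (1.88) and 503 (1.75), and c 318, without an altered value, had 1.86. Site c 401 had altered binding of 0.03, so its motif form was bound 2.72 log2 units more while its activity was 1.25 lower. The lowest were w 182 (-1.32), w 110 (-0.53) and w 482 (-0.45), and c 182 (-0.995), c 350 (-0.71) and c 728 (-0.70). Number 182 (T4G, C5A) was the one number bound at least 2-fold less in the native than in the altered form, in both classes: the difference was -1.58 in w and -1.37 in c. Counts were modest for w 182, with 122 ChIP reads over 212 input reads in the native form and 201 over 116 in the altered form.

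The 3 flanking bases, which the rule did not use, went along with binding. PPARγ is known to contact the extension upstream of the 5′ half-site, whose last 3 bases are ACT. Native w members matching 0, 1, 2 and 3 of these bases had mean binding of 0.44 ± 0.80 (SD over 13 sites), 0.79 ± 0.80 (32 sites), 1.04 ± 0.96 (18 sites) and 1.66 ± 1.16 (6 sites). In class c the means were 0.08 ± 0.66 (11 sites), 0.56 ± 0.73 (26 sites), 1.09 ± 1.01 (13 sites) and 1.13 ± 0.77 (4 sites). Each further match had a higher mean in both classes, within spreads that overlap. The w and c sites of a number share these flanking bases, so the 2 classes are not independent here.

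Altered members showed no such order: their mean binding was -0.07, -0.18, 0.02 and -0.20 in w. Sites with 3 mismatches, just outside the rule, had the same order in the native form, with 0.19, 0.40, 0.87 and 1.53 in w and 0.02, 0.05, 0.42 and 0.96 in c. Among members, the means of activity did not have this order. Native activity of the w members was 0.48, 0.41, 0.32 and -0.13 at 0 to 3 flanking matches, and the native minus altered activity was 0.66, 0.66, 0.78 and 0.42. In class c the latter was -0.15, 0.24, 0.24 and 0.07. In sites with 3 mismatches it did, with native minus altered activity of 0.56, 0.76, 0.81 and 0.82 in w and 0.03, 0.11, 0.16 and 0.33 in c, within SDs wider than the steps.

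**Figure D4:**
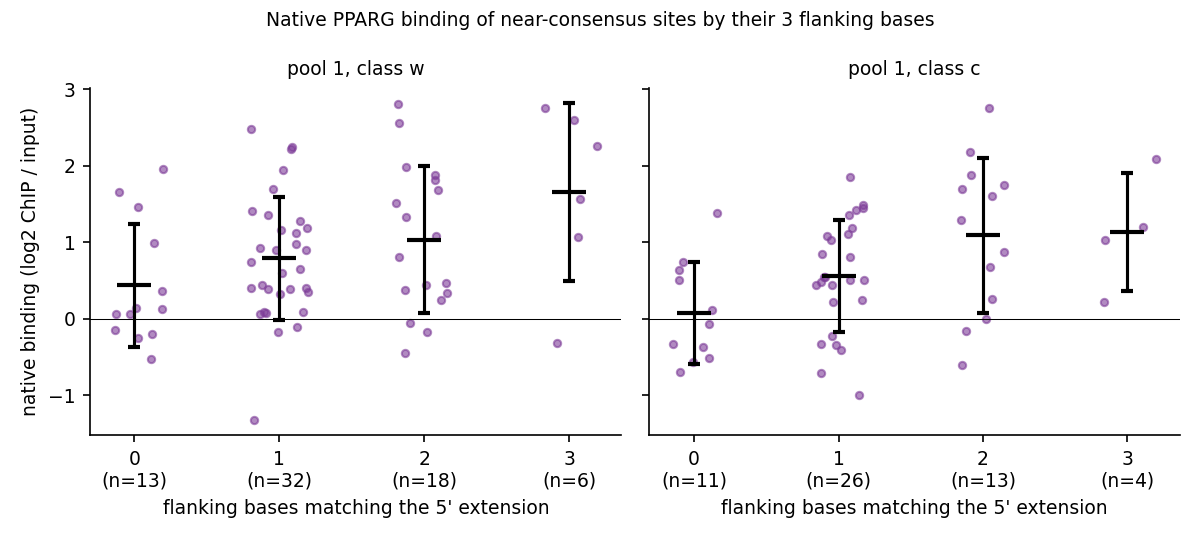
Native PPARG binding (log2 ChIP over input) of pool 1 members by how many of the 3 bases before the motif match the 5′ extension, class w on the left and class c on the right; points are sites, dashes with bars are means and SD. The means rise from 0.44 to 1.66 in w and from 0.08 to 1.13 in c.

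Native binding was also set out by the place of the mismatches. With mismatches only in the 5′ half-site, bound by PPARγ, native binding was 0.89 ± 0.92 in w (SD over 17 sites) and 0.71 ± 0.83 in c (11 sites). With mismatches only in the 3′ half-site, bound by RXR, it was 1.03 ± 0.83 (9 sites) and 0.83 ± 1.23 (7 sites). With any mismatch in the spacer it was 0.63 ± 0.91 (17 sites) and 0.29 ± 0.68 (16 sites), the lowest of these 3 sets in both classes. Members with mismatches in both half-sites are not in these sets and are not given here. Of the 21 tested c members with a spacer mismatch, 0 were called higher in activity, against 3.07% of all c sites, and 1 was called lower, against 0.801%. These 21 sites are too few to be told apart from those shares. Their mean native minus altered activity was -0.01 ± 0.44. In class w it was 0.80 ± 0.75, with 5 of 21 called, against 26.2% of all w sites.

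Binding of the same 16 bases was compared between positions where both had values. Native w exceeded native c by 0.34 ± 0.99 (SD over 39 numbers), and w was above c at 24 of them. Over all 339 such numbers the difference was 0.29 ± 0.997, with w above c at 212, so members were close to all numbers. In the altered form the difference was -0.11 ± 0.84 (37 numbers), against 0.11 ± 0.94 over all 317 such numbers. Over the 33 numbers with all 4 values, the native minus altered difference was larger in w by 0.47 ± 0.89, against 0.19 ± 0.99 over all 293 such numbers. The SD over numbers exceeded each of these means.

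The 2 readouts were then set side by side for the members with both. Spearman's rho between the native minus altered differences was -0.22 over 67 w sites and 0.23 over 46 c sites, as a description over sites that share their libraries. Of the 27 w members bound at least 2-fold more in the native form, 5 were called higher in activity, and of the other 40, 13 were, against 26.2% of all tested w sites. The mean activity difference was 0.42 ± 0.80 in the first set and 0.90 ± 0.74 in the second. In class c, 3 of 23 bound members and 1 of the other 23 were called, against 3.07% of all tested c sites. The difference between these shares was not tested.

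**Figure D5:**
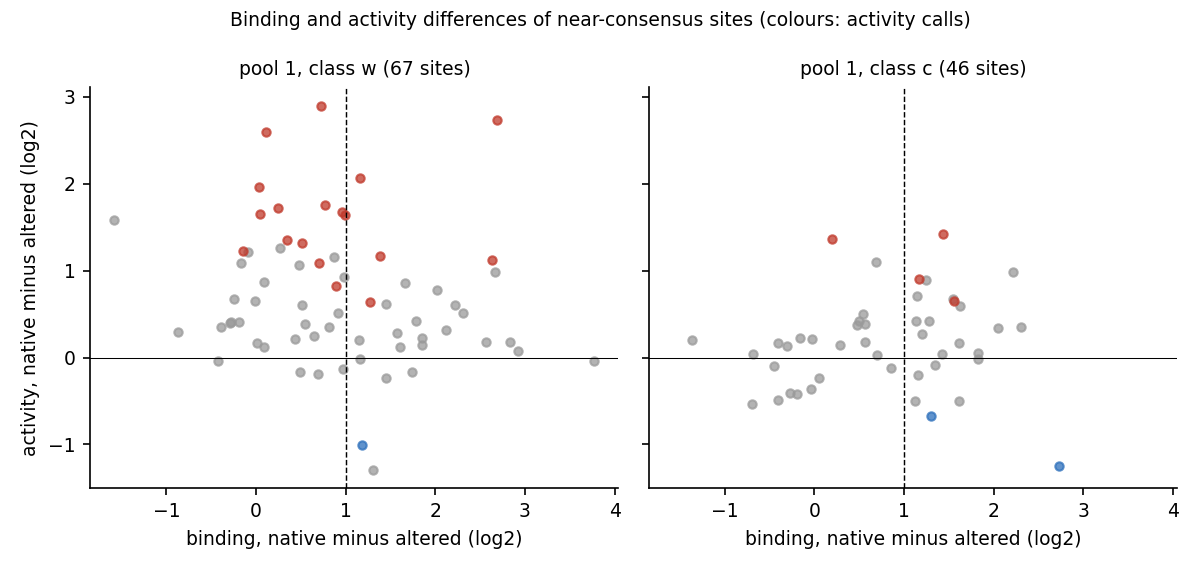
Native minus altered activity (vertical, log2) against native minus altered PPARG binding (horizontal, log2) of the members with both values, class w on the left and class c on the right; red and blue points passed the activity test. Right of the dashed line, at 2-fold more binding, lie 27 w and 23 c members, of which 5 and 3 are red.

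In 1 pair of w sites with the same window the 2 readouts went apart. Site w 136 was named for its high native binding and w 486 for its large activity difference. That choice itself favours such a contrast, and other pairs with a shared window are not counted here. Sites w 136 and w 486 share their 13 bases and were both bound, at 2.48 (interval 2.35 to 2.62) and 1.18 (interval 1.09 to 1.27). Native activity was -0.64 at w 136, from -3.08 to -0.08, and 1.86 at w 486, from 1.14 to 2.86, and the barcodes of the sites did not overlap. The difference from the altered form was 0.14 at w 136 and 2.07 at w 486. Another pair with a shared window, w 519 and w 442, did not show this. Native binding was 0.39 and 0.44 there, and native activity was 3.55 and 1.58. The most active member of pool 1, w 519, had native binding of 0.39 (interval 0.28 to 0.51) and w 236, the next, 0.13, both below the mean of w members. Site w 4 had both, with native binding of 1.88, altered binding of -0.81, and a difference in activity of 2.73.

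The 6 16-mers found in both pools allow the same motif to be followed across more positions. The 16-mer of number 20 was more active in the native form at its pool 3 position, w 129 (chr16:90197717-90197732), by 2.45, and at c 20 by 0.90, but by 0.17 at w 20, where binding was 2.76, against 1.03 at c 20. Pool 3 binding is not analysed here. The exact match of number 450 had no called difference at any of its 3 positions. Activity is relative to each pool's own totals, so levels are not compared between pools.

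The RNA and plasmid libraries held 34801803 and 48330091 counts in pool 1, with 9 barcodes for each element, and 37267216 and 56246463 in pool 3, with 15. The ChIP and input libraries held 1987761 and 1381624 counts. Native members had a median of 9 usable barcodes in pool 1 and 13 in pool 3, the same as all other sites. Native plasmid counts of members had medians of 11978.5 and 14488 in pool 1 w and c, and 6278 and 5647 in pool 3 w and c. Altered forms had lower medians, 9044.5, 11415.5, 4727 and 3335 in the same order. Whether this bears on the differences was not tested.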

How the data were processed

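The deposited tables of pools 1 and 3 and of the pool 1 ChIP hold raw read counts made by the authors, per barcode or, for the ChIP, per element. The submitters' processing notes name mm9 and BWA 0.7.12. How barcodes were counted is not given in the sources used here. Groups came from the sample titles.

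Activity was log2 of RNA over plasmid counts with a pseudocount of 1, scaled to library totals, taking the median of barcodes that had 20 or more plasmid counts. Binding was the same ratio of ChIP to input for elements with at least 20 input counts; no element had under 101. Native and altered forms, and w and c, were compared by 2-sided permutation tests of barcode means with at least 3 barcodes in each form. The tests were exact below 10 barcodes in either form, else with 100000 resamples. Effects printed are differences of medians. P-values were Benjamini-Hochberg adjusted over all sites of a pool, or all numbers for w against c, with a threshold of 0.05. The interaction used limma 3.58.1 in R 4.3.3. Python 3.11.15, numpy 2.4.6, pandas 2.3.3 and scipy 1.17.1 were used, and the tests were checked on simulated data.

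Barcodes are not replicate cultures. The p-values cover the spread between barcodes of single libraries, and ChIP intervals cover counting error only, since PCR reads without molecular identifiers are not independent molecules. Alternatives were other pseudocounts, count minimums, barcode sets, tests, adjustments and mismatch limits. Named sites were the exact matches, the 5 highest and 3 lowest called per set, the 5 highest and 3 lowest called w minus c differences, the 3 largest interactions, and per class the 5 highest and 3 lowest in native binding among members with ChIP values for both forms, plus pool 1 number 126, which has 3 mismatches and is no member. Members, lists and rules were chosen with earlier results of these data known.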

Additional observations from a re-analysis of the deposited data

Results flagged for a closer look

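At 10 of the named numbers of pool 1, the effect of the motif on activity differed between the w and c positions of the same 16 bases, by the limma interaction of class and form with an adjusted p under 0.05. The values are native minus altered activity in w minus the same in c, as differences of barcode medians on the log2 scale. They were 3.02 at number 486, 3.00 at 519, 2.85 at 432, 1.98 at 401, 1.75 at 540, 1.67 at 4, 1.51 at 236, 1.19 at 503, 1.08 at 482 and -1.60 at 292. At 401 the native form was 1.25 lower than the altered form in c and 0.74 higher in w, where the site did not pass the test. At 292 the w form fell by 1.01 and the c form rose by 0.59. Each rests on 1 RNA and 1 plasmid library.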

How the results depend on the processing

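No paired analysis was possible because each library was made once. Of 202 values recomputed for the comparisons under 17 settings, 174 stayed within 2 standard errors of the mean or within 1.5 times the share, and none changed sign among differences larger than 2 standard errors. Halving the barcodes removes power: with 4 or 5 barcodes in a form few tests in pool 1 can reach the threshold. With the first barcode columns the share called higher was 0% in pool 1 w and c, 7.86% in pool 3 w, 1.32% in pool 3 c, 0% for native and 0% for altered w against c and 2.44% for the interaction, and the pool 3 w mean was 0.89. With the second set it was 0% in pool 1 w and c, 9.15% in pool 3 w, 18.4% and 0% for native and altered w against c and 9.20% for the interaction. With at least 100 plasmid counts 11.2% of pool 1 c members were called. With barcodes summed, the pool 3 c mean was 0.016, and -0.027 at 2 mismatches. The cause was not tested. With 0 or 1 mismatch only, the means were 0.40 in pool 1 w, 0.54 for native w against c and 0.28 for the interaction, the shares called 13.3% in pool 1 w, 12.5% in pool 1 c and 0% in pool 3 c, and the binding differences 1.46 in w (70.0% over 2-fold) and 1.55 in c, with native c binding of 1.32. This setting has fewer sites. Without the spacer in the count, the c binding difference at 0 or 1 mismatch was 0.79. Of 188 values of single named sites, 150 kept their call and 38 lost it, 32 of these with fewer barcodes. Counting a repeated position once, centring the ChIP and leaving out pool 3 w 669, all chosen after seeing the data, moved no value past these limits. Adjustment within each class has no counterpart for w against c and was not run there. Barcodes of a member varied more in pool 3 than in pool 1, and what part depth has in this was not tested.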
